A study of Mus musculus with 27 samples.

Results

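The 9 genes described here are the myogenic regulatory factors Myod1, Myf5, Myf6 and Myog, their partner Mef2c, the pharyngeal muscle factors Tbx1 and Msc, and the progenitor factors Pax7 and Pax3. They were chosen by name: every non-control probe that the scanner files assign to one of these symbols was taken, 11 probes for 9 of the 28508 genes on the array. The rule uses no measured value. Expression was read in the developing mouse esophagus as the log2 ratio of Cy5 (sample) to Cy3 (reference RNA) on Agilent arrays, with 3 arrays in each of 9 groups. A ratio of 0 means equal signal in sample and reference, and since the reference level differs between genes, ratios of different genes are not levels that can be ranked.

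The wild-type (WT) series consisted of whole esophagi of C57BL/6J mice at embryonic days E11.5 and E15.5, on the day of birth (P0) and at postnatal day 7 (P7). At P7, whole esophagi of Nrf2-/-, Keap1-/- and Nrf2-/-Keap1-/- pups on a C57BL background were compared with WT. The alleles are carried in the germline and so by every tissue of the pups, not by the epithelium alone. In adults of 8 weeks, the esophageal epithelium, and not the whole organ, was taken from WT and Nrf2-/- mice, so that age and tissue changed together between P7 and adult and cannot be told apart. Each array carried RNA of an individual esophagus, and the common reference was pooled from 11 mouse cell lines.

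Skeletal muscle forms from progenitors that carry Pax3 or Pax7 in the trunk and Tbx1 and Msc (MyoR, musculin) in the pharyngeal arches. Myf5 and Myod1 commit these cells to the muscle lineage, and Myog, together with Mef2c and Myf6 (MRF4), then drives their differentiation into fibers; in grown muscle, Pax7 marks the satellite cells. The muscle coat of the mouse esophagus is unusual in that it becomes striated almost along its whole length, from progenitors of the pharyngeal type that need Tbx1 and not Pax3, and the striated fibers spread downwards around birth over a coat that began as smooth muscle.

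Between 58.9% and 69.3% of spots of an array were well above background in Cy5, and median Cy5 signal ran from 81.8 to 226. Nfe2l2, the gene of Nrf2, was lower than in WT by 3.63 on the log2 scale in Nrf2-/- esophagi at P7, by 3.86 in Nrf2-/-Keap1-/- esophagi and by 4.30 in Nrf2-/- adults (limma adjusted p from 1.44e-07 to 0.000538). The Keap1 transcript was lower by 0.45 in Keap1-/- (SE 0.22, adjusted p = 0.145) and by 0.99 in Nrf2-/-Keap1-/- esophagi (adjusted p = 0.0789), neither of which passed the threshold; whether its probe lies in the deleted part of the gene is not given in the sources used here. Across genes, the log2 ratios of the array labelled E11.5 replicate 3 were closest to those of the second and the third E15.5 array (Pearson's r 0.98 for both), and less close to the other two E11.5 arrays (0.83 and 0.77). Conversely, the array labelled E15.5 replicate 1 was closer to the other E11.5 arrays (0.96 and 0.93) than to the other E15.5 arrays (0.80 and 0.81). Both kept their labels, and the changes of single members that rest on them are given without them where the call differed. No other group shared the slide or the scan of the 3 Keap1-/- arrays, and for them genotype and batch cannot be told apart. The 3 WT arrays at P7 were alone on slide 5, while the Nrf2-/- arrays at P7 lay on slide 6 and the Nrf2-/-Keap1-/- arrays on slides 6 and 8. In every comparison with WT at P7, genotype or age therefore cannot be told apart from the slide. The E15.5 arrays (slides 1 and 2) and the P0 arrays (slides 3 and 4) shared no slide either. Nrf2-/- arrays at P7 (slide 6, scan 1) and Nrf2-/- adult arrays (slides 10 and 11, scans 2 and 3) shared no slide, scan or software version. That step thus cannot be told apart from batch. The WT adult arrays (slides 8 and 9) shared no slide with the Nrf2-/- adults, so genotype and slide cannot be told apart there. Markers of squamous epithelium (Krt5, Krt14, Trp63 and 5 others) had a mean log2 ratio of 3.61 to 4.24 on all 21 arrays from P0 onwards, and of 1.04, 1.38 and 1.44 on E11.5 replicates 2 and 1 and the array labelled E15.5 replicate 1, against 3.33 to 3.38 on the other 3 embryonic arrays.

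Of the 9 genes, RefSeq promoter entries (GRCm38.p6) were held for 5: Myog, Myf5, Pax7, Tbx1 and Mef2c. The 250 bases before the start site of Myog are printed because Myog had the widest range of ratios within the whole esophagus among genes read on 10 spots, and those of Myf5 because Myf5 was called higher in the same step and is shown as the contrast. Capitals mark, on either strand, E-boxes (CANNTG, the letters that basic helix-loop-helix factors such as Myod1 bind), the MEF3 letters TCAGGTTTC, and the MEF2 site with its last base left free.
Myog, chr1:134289754-134290003, plus strand: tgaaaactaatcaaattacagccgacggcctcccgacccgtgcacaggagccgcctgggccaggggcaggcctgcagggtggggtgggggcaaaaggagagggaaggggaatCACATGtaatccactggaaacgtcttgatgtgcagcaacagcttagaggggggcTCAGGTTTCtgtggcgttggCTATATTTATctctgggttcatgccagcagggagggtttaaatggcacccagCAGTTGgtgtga
Myf5, chr10:107486135-107486384, minus strand: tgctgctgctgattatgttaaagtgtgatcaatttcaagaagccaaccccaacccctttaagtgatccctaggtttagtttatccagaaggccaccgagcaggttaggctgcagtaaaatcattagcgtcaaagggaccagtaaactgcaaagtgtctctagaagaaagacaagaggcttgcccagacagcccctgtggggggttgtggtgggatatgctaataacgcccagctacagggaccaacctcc
The Myog window held E-boxes at -138 and -12, the MEF3 letters at -84 and the MEF2 site at -64, counted from the start site. The Myf5 window held none of them. Among the windows not printed, entry 1 of Mef2c held E-boxes at -234 and -100 and a MEF2 site at -146. Entry 3 of Mef2c and entry 2 of Tbx1 held an E-box each, and the Pax7 window held none of these sites. Over 32536 promoter windows of the same length, 66.2% held an E-box, 6.99% the MEF2 site and 0.378% the MEF3 letters. The E-box CAGCTG, a subset of CANNTG present in 13.1% of windows, and the core of the antioxidant response element bound by Nrf2 (TGACNNNGC, 10.2% of windows) were in none of the 8 windows of the 5 genes. A match is a run of letters and no measure of binding.

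**Figure D1:**
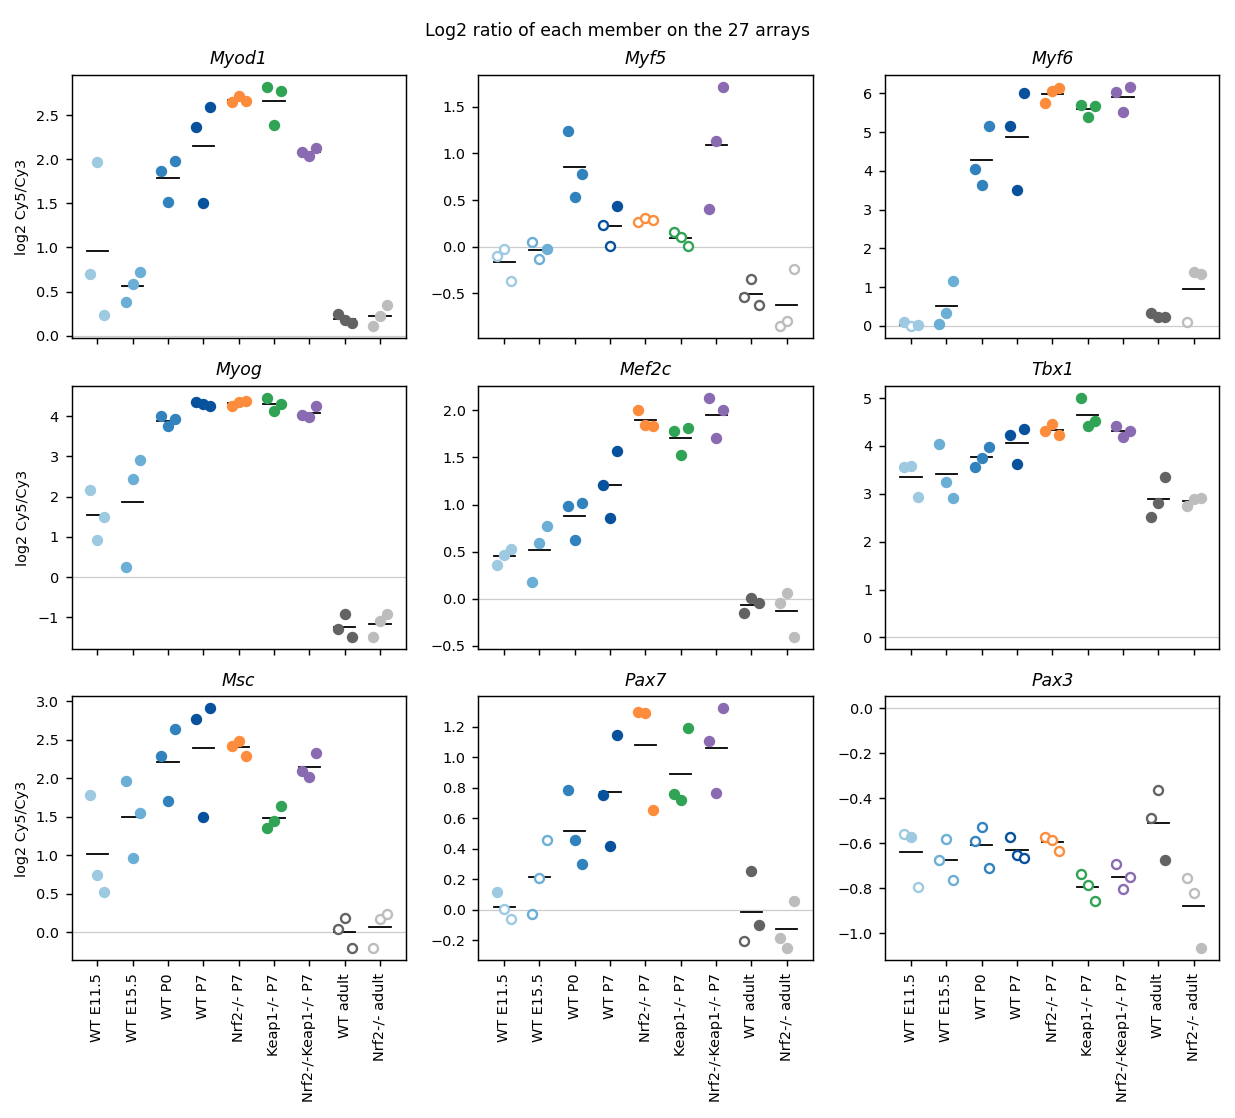
Each panel plots the log2 Cy5/Cy3 ratio of 1 gene (vertical axis) in the 9 groups (horizontal axis), with 1 point per array, a bar for the mean of 3 arrays, and open points where no probe of the gene was well above background in Cy5. Myog, Myf6, Myod1, Msc, Mef2c and Tbx1 are lower in both groups of adult epithelium than in all P7 groups, and Pax3 is near background throughout.

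In the WT esophagus the myogenic factors were higher after birth than in the embryo. By label, Myf6, Myog and Myf5 rose between E15.5 and P0, by 13.6, 4.06 and 1.85 times. None of the 8 genes tested was called between E11.5 and E15.5 or between P0 and P7. The embryonic steps depend on the 2 arrays of doubtful label. Without them Myog rose by 1.13 on the log2 scale from E11.5 to E15.5 (limma adjusted p = 0.053) and by 1.21 from E15.5 to P0. Over the whole span from E11.5 to P7, Myf6, Myog, Msc, Myod1, Mef2c and Pax7 were called higher. Among 8 genes tested (Pax3 was too dim), limma's F-test over the 4 time points called 6, Myf6, Myog, Myf5, Myod1, Mef2c and Pax7 (adjusted p from 0.000258 to 0.0499), where it called 30.0% of all 19912 genes tested. Of these, Myf5 and Pax7 could be tested only through groups where they were high, as given below. In these bulk samples fewer muscle cells and less RNA per cell cannot be told apart.

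Myf6, which acts late in differentiation and is the most abundant of the 4 factors in mature fibers, had log2 ratios of 0.09, -0.02 and 0.02 at E11.5 and 0.05, 0.33 and 1.15 at E15.5, by label. At P0 it stood at 4.05, 3.62 and 5.15 and at P7 at 5.15, 3.51 and 6.00. The groups before and after birth lay far apart, while P0 and P7 overlapped. The rise from E15.5 to P0 was 3.77 (SE 0.57, limma adjusted p = 0.00165) and that from E11.5 to P7 was 4.85 (SE 0.57, adjusted p = 0.000273, 28.8-fold). Its probe had 1 spot and was well above background on 25 of 27 arrays. At E11.5 its Cy5 signal was low, at 52.3 to 75.3, so the size of the fold is uncertain.

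Myog, required for the fusion of myoblasts into fibers, was well above background on all 27 arrays, and each value is a mean over its 10 spots. By label, it read 2.17, 0.93 and 1.51 at E11.5, 0.25, 2.43 and 2.92 at E15.5, 4.0, 3.75 and 3.92 at P0, and 4.36, 4.30 and 4.25 at P7. Every P0 and P7 array exceeded every embryonic array, and all P7 arrays exceeded all P0 arrays by a small margin. From E15.5 to P0 Myog rose by 2.02 (SE 0.56, adjusted p = 0.0284), a call that was lost when any 1 of the 3 P0 arrays was left out (1.97 to 2.09), and from E11.5 to P7 by 2.77 (SE 0.56, adjusted p = 0.00482). Without the arrays labelled E11.5 replicate 3 and E15.5 replicate 1, the step from E11.5 to E15.5 changed from 0.33 (adjusted p = 0.997) to 1.13 (adjusted p = 0.053; 0.00699 when all arrays were fitted together), and the step from E15.5 to P0 to 1.21, still called. The array labelled E15.5 replicate 1 gave the lowest Myog ratio of the 6 embryonic arrays.

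The signal of Myog in the reference colour was not constant. Cy3 signal ran from 693 to 1045 on the 6 adult arrays, from 756 to 1624 on the 6 embryonic arrays, from 2026 to 2615 at P0 and from 1504 to 4147 on the 12 arrays at P7, although all arrays carried the same kind of reference RNA. Cy5 signal ran from 81.1 to 355 in adults and from 5661 to 24542 at P7. The Cy3 values rose where the Cy5 values were high, and their part in the ratios was not tested.

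Myod1, a commitment factor, read 0.70, 1.96 and 0.23 at E11.5, 0.38, 0.59 and 0.72 at E15.5, 1.87, 1.52 and 1.97 at P0, and 2.36, 1.51 and 2.60 at P7. Apart from E11.5 replicate 2, all embryonic values lay below all values at P0 and P7. The step from E15.5 to P0 was 1.22 (SE 0.40, adjusted p = 0.0553), with groups apart but not called, and E11.5 to P7 was 1.19 (SE 0.40, adjusted p = 0.0457). The second call was lost in 9 of 12 fits that left out 1 array each, those without E11.5 replicate 1 or the array labelled E11.5 replicate 3 (0.82, adjusted p = 0.127), E15.5 replicate 2 or 3, any P0 array, or P7 replicate 1 or 3. It was also lost without both arrays of doubtful label (0.82, adjusted p = 0.121).

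On E11.5 replicate 2, Myod1 was bright in both colours, on 10 of 10 spots. Its mean signal there was 5787 in Cy5 (3243 to 8061 over the spots) and 9013 in Cy3 (6486 to 12093). On the other 26 arrays Myod1 lay between 72.0 and 574 in Cy5 and between 104 and 219 in Cy3. The reference colour of this array stood apart in general: its Cy3 signals correlated with those of the other arrays at a median r of 0.97, the lowest of all 27, and 113 of 26242 probes exceeded their median Cy3 signal more than 8-fold, against 1 to 30 on the other arrays. Cy3 signals of Tbx1 (6971) and Pax3 (606) were raised on it too. Without it, Myod1 rose from E11.5 to P7 by 1.69 (adjusted p = 0.00399) and from E15.5 to P0 by 1.22 (adjusted p = 0.0118). With this array and the 2 of doubtful label left out together, which left 1 array labelled E11.5, the values were 1.46 (adjusted p = 0.0157) and 1.13 (adjusted p = 0.0252).

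**Figure D2:**
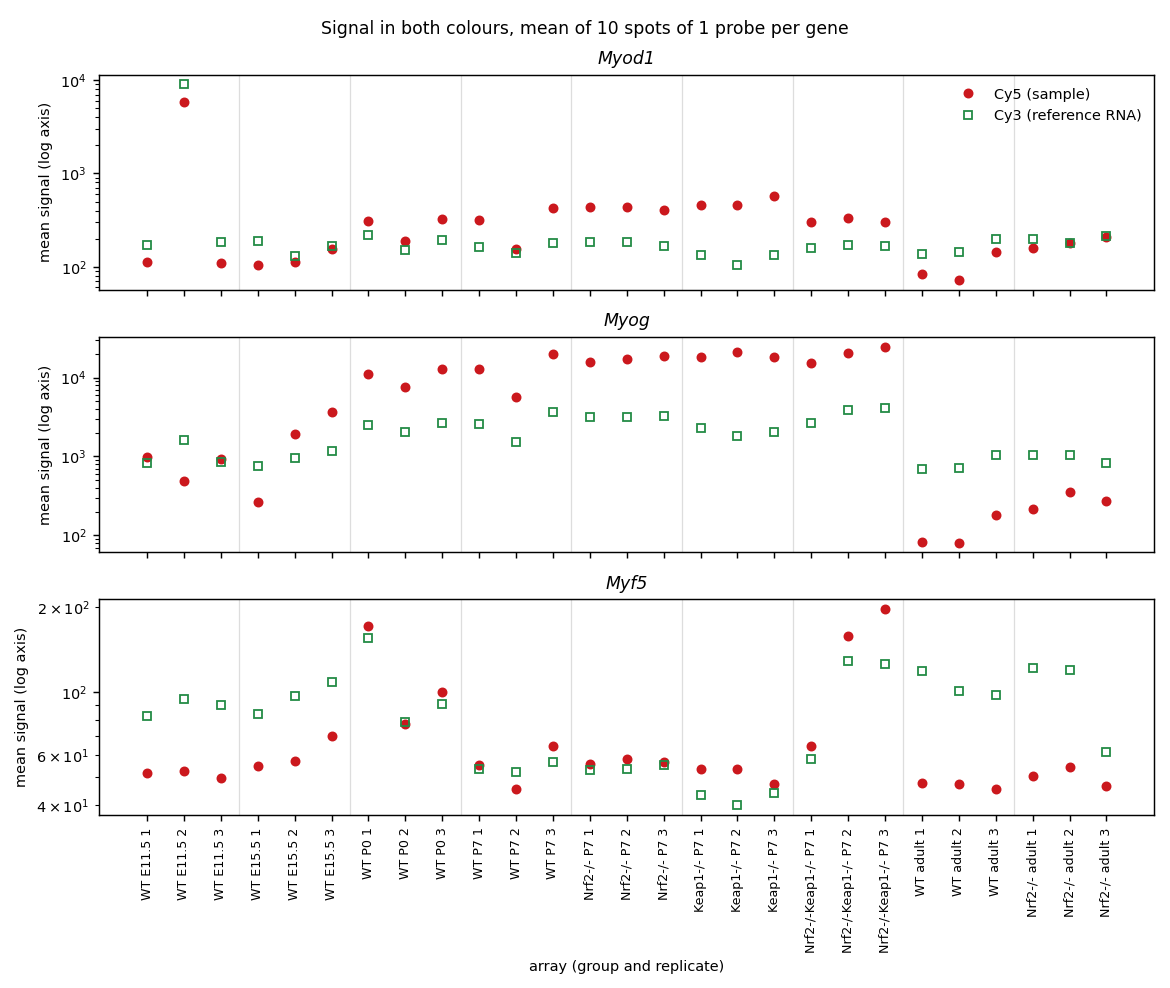
Mean signal of 10 spots (vertical, log axis) in Cy5 and Cy3 for Myod1, Myog and Myf5 on each of the 27 arrays (horizontal axis, by group and replicate). Myod1 is bright in both colours on WT E11.5 replicate 2 alone, the Cy3 signal of Myog is higher from P0 to P7 than in adults, and the Cy3 signal of Myf5 falls into a lower and a higher set of arrays.

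Myf5, the earliest of the commitment factors in the embryo, was dim. It was well above background on all 3 arrays at P0, on 1 array each at E15.5 and P7, and on none at E11.5. Myf5 thus reached the 3 arrays needed for a test only through P0, the group where it was high, and its calls over these time points carry that limit. The log2 ratios were -0.10, -0.03 and -0.36 at E11.5, 0.05, -0.13 and -0.02 at E15.5, 1.24, 0.54 and 0.78 at P0, and 0.23, 0.01 and 0.43 at P7. P0 stood above the other 3 time points with no overlap. From E15.5 to P0 Myf5 rose by 0.89 (SE 0.18, adjusted p = 0.00754), and from P0 to P7 it differed by -0.63 (SE 0.18, adjusted p = 0.121).

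The Cy3 signal of Myf5 was 40.0 to 61.3 on the 11 arrays of slides 5, 6, 7 and 11, which hold the WT, Nrf2-/- and Keap1-/- arrays at P7, and 78.2 to 156 on the 16 arrays of the other 7 slides. A comparison between these sets of slides moves with the reference colour as well as with the sample. The step from E15.5 to P0 lies within the second set. The P7 group and the P0 group of WT lie in different sets.

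Mef2c, the MADS-box partner of the myogenic factors, had 2 probes that disagreed. The probe for its RefSeq transcript was bright, and the probe designed on a cDNA clone was well above background on 1 array only. On the RefSeq probe the log2 ratio was 0.56, 0.83 and 1.47 at E11.5, 0.63, 1.23 and 1.56 at E15.5, 2.05, 1.27 and 2.21 at P0, and 2.48, 1.82 and 3.12 at P7. Neighbouring time points overlapped, and E11.5 and P7 did not. The change from E11.5 to P7 was 1.52 on this probe (adjusted p = 0.0133) and 0.76 (SE 0.20, adjusted p = 0.0179) as the mean of both probes. The single spot of the RefSeq probe was marked as an outlier by the scanner software on 12 arrays. Leaving marked spots out ended the call (0.45, adjusted p = 0.128), but on those arrays the value then rests on the dim cDNA probe. The call was also lost in 2 of the 12 fits without 1 array.

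Tbx1, the T-box factor of pharyngeal mesoderm, was above the reference on every array and at every time. It read 3.56, 3.57 and 2.92 at E11.5, 4.05, 3.25 and 2.91 at E15.5, 3.57, 3.75 and 3.97 at P0, and 4.22, 3.63 and 4.36 at P7. The P7 arrays lay above the E11.5 arrays, but the change of 0.72 (SE 0.30, adjusted p = 0.0982) was not called. Its probe was well above background on all 27 arrays, and its single spot was marked as an outlier on 13. The array labelled E15.5 replicate 1 had the highest embryonic value, and without it the change from E11.5 to P7 passed the threshold (0.72, adjusted p = 0.0401). Without the array labelled E11.5 replicate 3 it was 0.50 (adjusted p = 0.251), and without both it was 0.50 (adjusted p = 0.0992), and neither was called.

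Msc, a repressor that acts beside Tbx1 in pharyngeal muscle, read 1.78, 0.74 and 0.53 at E11.5, 1.97, 0.96 and 1.55 at E15.5, 2.28, 1.71 and 2.63 at P0, and 2.77, 1.5 and 2.90 at P7. The time points overlapped, and the F-test did not call the gene (adjusted p = 0.0953). The change from E11.5 to P7 was 1.37 (SE 0.45, adjusted p = 0.0400), and it was lost in 6 of 12 fits without 1 array and without the arrays labelled E11.5 replicate 3 and E15.5 replicate 1 (1.13, adjusted p = 0.0842).

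Pax7 was near background in the embryo, with 0.11, 0.00 and -0.06 at E11.5 and -0.03, 0.21 and 0.46 at E15.5. After birth it was well above background on every array of the whole esophagus, at 0.79, 0.46 and 0.30 at P0 and 0.75, 0.42 and 1.15 at P7. The P7 arrays exceeded the E11.5 arrays without overlap, by 0.75 (SE 0.20, adjusted p = 0.0171, 1.69-fold). Leaving out P7 replicate 3 ended this call (0.57). In the embryo Pax7 was well above background on 1 array at E11.5 and on none at E15.5. It thus reached the 3 arrays needed for a test only through the groups after birth, where it was high. Its calls over these time points carry that limit.

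On most arrays Pax3 was not well above background. The gene mean lay between -1.07 and -0.36 on all 27 arrays, and Pax3 was well above background on 1 array each of WT E11.5, WT adult and Nrf2-/- adult, so no test was made. On its 10-spot probe the Cy5 signal was 44.7 to 106, while the reference RNA gave 199 to 687, so the probe itself detected its transcript.

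Altogether, 6 of the 8 genes tested were called higher from E11.5 to P7, where 30.1% of all genes were called and 16.7% called higher, and the median change of the 8 was 0.97 against -0.01 for all genes tested. Pax7, among these 6, met the filter only through the groups after birth and adds no independent support to the count. From E15.5 to P0, 3 of 8 were called, all higher, against 19.7% of all genes called and 11.3% called higher. Groups did not overlap for 4 of the 8 in that step (43.9% of all genes) and for 6 of the 8 from E11.5 to P7 (42.6%). Between the 2 embryonic labels none of the 8 passed the threshold (limma, where 0 of 19912 genes were called and 330 had an unadjusted p under 0.05). None of the 8 was called from P0 to P7, where 2.42% of all genes were, and for 2 of them, Myf5 and Myog, the groups did not overlap (28.1% of all genes). The number from E11.5 to P7 fell to 4 without the 2 arrays of doubtful label, with Myod1 and Msc lost, and to 2 without P7 replicate 3, and it rose to 7 when both embryonic labels were pooled.

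The genes of the fiber itself rose in the same steps. Of 34 muscle differentiation genes tested, 31 were called higher from E11.5 to P7 and 0 lower, with a median change of 3.18. Myot, a Z-disc protein, rose by 6.43 (SE 0.81), Myl1, a myosin light chain of fast fibers, by 5.60 (SE 0.72), and Tnnt3, fast troponin T, by 5.45 (SE 0.67). From E15.5 to P0, 23 of the 34 were called higher. None passed limma's threshold between the 2 embryonic labels, nor between P0 and P7. These list counts were not recomputed without the arrays of doubtful label.

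Among satellite cell and myoblast surface genes, 7 of 14 rose from E11.5 to P7 and 1 fell. Cdh15, M-cadherin, rose by 3.68 (SE 0.56), Calcr, the calcitonin receptor of quiescent satellite cells, by 1.56 (SE 0.40) and Itga7, the muscle laminin receptor subunit, by 1.56 (SE 0.22). Of 25 upstream and partner factors, 5 were higher and 4 lower. These counts stand beside 30.1% of all genes called in this step, 16.7% called higher. Those higher included the homeodomain factors Barx2 (2.61, SE 0.60) and Pitx3 (1.76, SE 0.20).

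Of 15 inhibitors of the myogenic factors, 1 rose from E11.5 to P7 and 3 fell, again beside 30.1% of all genes called. Mstn, myostatin, which limits muscle growth, rose by 2.69 (SE 0.58). Twist1 and Twist2, basic helix-loop-helix proteins of mesenchyme that sequester the partners of Myod1, fell by 1.74 (SE 0.32) and 1.48 (SE 0.46). Of 8 myoblast fusion genes tested, Jam2 was higher, and Cdh2 and Kirrel were lower. The squamous epithelium markers named above moved too, with 4 of 8 called higher, while of 10 smooth muscle markers 1, Myocd, was called, lower by 1.51 (SE 0.42). All other smooth muscle markers went up without being called, from 0.62 for Smtn to 1.62 for Tagln. The nearest to the threshold was Cnn1 (1.57, limma adjusted p = 0.0565). Airway and lung markers were highest at P0 (mean log2 ratio 1.36 to 2.43, against 0.10 to 0.61 at P7), with 2 of 4 called higher from E15.5 to P0.

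**Figure D3:**
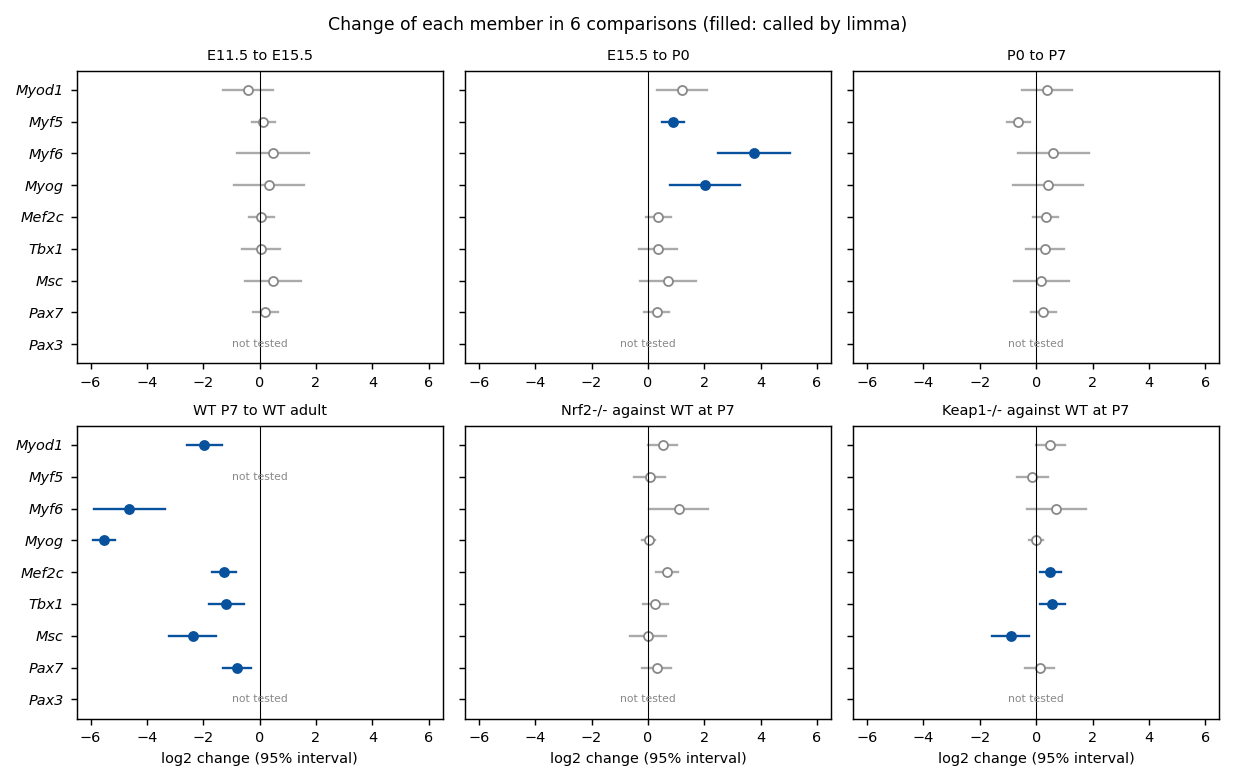
Log2 change of each gene (horizontal axis) with its 95% interval in 6 comparisons, from limma; filled blue points were called at an adjusted p of 0.05 or lower, and genes too dim to test are marked. Myf6 and Myog change most from E15.5 to P0 and, downwards, from P7 to the adult epithelium.

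In adult epithelium, the myogenic factors were low or near background. All 7 genes that could be tested were lower than in the whole esophagus at P7, in WT and in Nrf2-/- mice alike. Within each genotype the P7 and adult arrays shared no slide. In both genotypes the groups did not overlap for any of the 7. Msc, well above background on no adult array, entered these tests only through the P7 arrays where it was high. Its direction thus largely followed from the filter, and it adds no independent support to the count. In WT 42.9% of all 18180 genes tested were called, 22.9% lower, and the groups did not overlap for 55.8% of genes. In Nrf2-/- mice 55.0% of genes were called, 28.0% lower, and the groups did not overlap for 65.2%.

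Myog stood at -1.28, -0.91 and -1.5 in WT adults and at -1.48, -1.08 and -0.91 in Nrf2-/- adults. Myog was thus below the reference on each of these arrays, and lower than on every array of whole esophagus. The difference from P7 was -5.53 in WT (SE 0.17, adjusted p = 4.04e-06, 46.3-fold) and -5.49 in Nrf2-/- mice (SE 0.17, adjusted p = 3.5e-09).

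Myf6 stood at 0.33, 0.24 and 0.23 in WT adults, differing from P7 by -4.62 (SE 0.55, adjusted p = 0.00059, 24.6-fold). In Nrf2-/- adults it was 0.11, 1.38 and 1.33, and the difference from P7 was -5.04 (SE 0.52, adjusted p = 1.26e-05). Replicates 2 and 3 of the Nrf2-/- adults were above all 3 WT adults, and replicate 1 was below them. Between adult genotypes the difference of 0.68 (SE 0.31, adjusted p = 0.321) was not called, and without Nrf2-/- replicate 1 it was 1.09 (adjusted p = 0.0176). The muscle differentiation genes had mean log2 ratios of 1.18, 2.00 and 1.88 on the same Nrf2-/- adult arrays and 0.61, 1.11 and 0.61 on the WT adult arrays, the Nrf2-/- array with the lowest of them being the one where Myf6 was low.

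Msc was not well above background on any adult array (0.05, 0.19 and -0.21 in WT, -0.21, 0.17 and 0.23 in Nrf2-/-). It was at least 4.75-fold lower than at P7 in both genotypes, on signals scaled between arrays, which leaves dye bias in place; the fitted differences were -2.38 (adjusted p = 0.00163) and -2.33 (adjusted p = 6.74e-05). Myod1 fell by 1.97 in WT (SE 0.27, adjusted p = 0.00104) and by 2.45 in Nrf2-/- mice (SE 0.22), to 0.15 to 0.24 and 0.10 to 0.35. Tbx1 stayed above the reference in epithelium on all 6 arrays, at 2.52, 2.80 and 3.34 in WT and 2.74, 2.90 and 2.92 in Nrf2-/- adults. It was lower than at P7 by 1.18 in WT (SE 0.26, adjusted p = 0.00964) and by 1.48 in Nrf2-/- mice (SE 0.22, adjusted p = 0.000171).

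Mef2c on its RefSeq probe was -0.25, 0.07 and -0.01 in WT and -0.07, 0.16 and -0.65 in Nrf2-/- adults, below every array of whole esophagus. The mean over both probes fell by 1.27 in WT (SE 0.19, adjusted p = 0.00154) and by 2.03 in Nrf2-/- mice (SE 0.17), and on the RefSeq probe alone the differences were -2.54 and -3.93. Pax7 fell by 0.79 in WT (SE 0.21, adjusted p = 0.0206) and by 1.21 in Nrf2-/- mice (SE 0.22, adjusted p = 0.000786). Before normalization, Pax7 in Nrf2-/- mice had Cy5 signals of 92.8 to 166 in adults and 94.9 to 153 at P7. Its Cy3 signals were 134 to 199 and 120 to 130. Median Cy5 signal was 195 to 226 on these adult arrays and 104 to 117 at P7. The part of these signals in the difference was not tested. The WT call of Pax7 was lost without P7 replicate 1 or 3 or without adult replicate 1 or 3 (-0.80 to -0.60). Myf5 was not well above background on any adult array and was not tested.

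No difference between the genotypes in the step from P7 to adult was called among the 7 genes, where 0.0919% of all 19581 genes were. The largest was that of Mef2c, at -0.76 (SE 0.24, adjusted p = 0.302). Between Nrf2-/- and WT adults 0 of 6 genes tested were called, where 0.445% of 18220 genes were (3069 with an unadjusted p under 0.05), and apart from Myf6 the differences lay between -0.11 and 0.07.

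Muscle genes as a group were lower in the epithelium than in the whole organ. Of 35 muscle differentiation genes, 30 were lower in WT adults than at P7 and 0 higher, with Tnnt1 (-5.74, SE 0.26), Myl1 (-5.64, SE 0.49) and Myot (-5.48, SE 0.73) the largest. Their mean log2 ratio was 0.61 to 1.11 in WT adults and 2.98 to 4.04 at P7, and 30 or 31 of the 35 were still well above background on each WT adult array. Of 10 smooth muscle markers 7 were lower and 0 higher, while of 8 squamous epithelium markers 2 were higher and 1 was lower. Among surface genes 11 of 14 were lower, led by Megf10 (-3.81, SE 0.28), Cdh15 (-2.73, SE 0.32) and Chodl (-2.31, SE 0.33). Of 23 upstream and partner factors tested, 14 were lower, among them Isl1 (-3.98, SE 0.29) and Tcf21 (-2.34, SE 0.23), and of 14 inhibitors 9 were lower, led by the Notch effectors Hey1 (-3.30, SE 0.16) and Heyl (-3.13, SE 0.28). Of 8 fusion genes 4 were lower, with Dysf at -1.76 (SE 0.24). Endothelium markers were lower in 5 of 6 and markers of neurons and glia in 5 of 5, while of 7 heart markers 1 was lower and 1 higher, of 4 cartilage markers 1 was lower and 1 higher, and of 3 B cell markers limma called 0. Of 2 airway and lung markers tested 1 was higher, Scgb1a1, by 3.81 (SE 0.17, adjusted p = 1.15e-05).

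At P7 few differences between knockout and WT esophagi passed the test. In Nrf2-/- esophagi none of the 8 genes tested was called, in Keap1-/- esophagi Tbx1 and Mef2c were called higher and Msc lower, and in Nrf2-/-Keap1-/- esophagi none was called. Myog, which was the most precisely measured, differed from WT by 0.03 in Nrf2-/- (95% interval -0.22 to 0.27), by -0.003 in Keap1-/- (-0.24 to 0.24) and by -0.21 in Nrf2-/-Keap1-/- esophagi (-0.45 to 0.03). The 3 comparisons share the WT arrays.

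Myog read 4.25, 4.35 and 4.39 in Nrf2-/-, 4.47, 4.13 and 4.31 in Keap1-/- and 4.03, 3.98 and 4.27 in Nrf2-/-Keap1-/- esophagi. Myf6 read 5.74, 6.05 and 6.13, 5.70, 5.40 and 5.68, and 6.03, 5.52 and 6.17 in the same order. Both overlapped with WT in each genotype, the WT spread of Myf6 (3.51 to 6.00) being the wider. WT replicate 2 was the lowest of its 3 for 7 of the 9 genes, and its muscle differentiation genes had a mean log2 ratio of 2.98 against 3.90 and 4.04 on the other WT arrays. The knockout arrays ranged from 3.89 to 4.34 on that measure. Its part in the comparisons below was not tested beyond leaving the array out.

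In Nrf2-/- esophagi, limma called 0 of the 8 genes, where it called 0.0156% of all 19246 genes (2077 with an unadjusted p under 0.05). Mef2c on its RefSeq probe was 3.84, 3.68 and 3.72, above all WT arrays (1.82 to 3.12), and as the mean of both probes it differed by 0.69 (SE 0.17, adjusted p = 0.35). Myod1 was 2.65, 2.72 and 2.66, also above WT, with a difference of 0.52 (SE 0.23, adjusted p = 0.458). The RefSeq spot of Mef2c was marked as an outlier on all 3 Nrf2-/- arrays and on 1 WT array. The difference of -0.30 without marked spots rests on the dim cDNA probe on those arrays and is no check of the RefSeq probe. These were the 2 genes of 8 whose groups did not overlap, where 16.5% of all genes did not.

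In Keap1-/- esophagi 3 of 8 genes were called, where 33.3% of all genes were, 15.4% higher and 18.0% lower, and the groups did not overlap for 1 of 8 (45.1% of all genes). Tbx1 read 5.01, 4.41 and 4.51, above the highest WT array (4.36), a difference of 0.58 (SE 0.20, adjusted p = 0.0455). Mef2c on its RefSeq probe read 3.51, 3.12 and 3.44, of which the lowest equalled the highest WT value to 2 decimals. Its mean over both probes differed by 0.50 (SE 0.17, adjusted p = 0.0467), and the RefSeq probe by 0.88 (adjusted p = 0.0295). Msc read 1.36, 1.45 and 1.63 against 2.77, 1.5 and 2.90 in WT, a difference of -0.91 (SE 0.29, adjusted p = 0.0341) with overlap at WT replicate 2.

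Of the 12 fits that left out 1 array each, 10 lost the call of Tbx1, 9 that of Mef2c and 5 that of Msc. Without WT replicate 2, Tbx1 (0.35) and Mef2c (0.32) were no longer called and Msc was. Without WT replicate 1, or Keap1-/- replicate 1 or 3, none of the 8 was called, and without WT replicate 3 Tbx1, Mef2c, Myod1 and Myf6 were. The RefSeq spot of Mef2c was marked as an outlier on 2 Keap1-/- arrays and 1 WT array, and the difference without marked spots (0.12, adjusted p = 0.834) likewise rests on the dim cDNA probe there. With the processed signals of the scanner software Msc changed sign, to 0.32 (adjusted p = 0.455), and Pax7 was called higher instead, at 1.36 (adjusted p = 0.0194). The Cy3 signal of Msc was 36.2 to 49.3 on the Keap1-/- arrays and 65.3 to 102 on the WT arrays, both low. For Pax7 the Cy3 signal was 40.1 to 47.8 on the Keap1-/- arrays and 107 to 120 on the WT arrays. Its Cy5 signal overlapped, at 82.05 to 125 and 72.9 to 134. The part of the reference colour was not tested.

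The gene lists around the members are given beside the 33.3% of all genes called in Keap1-/- esophagi, 15.4% higher and 18.0% lower. Of 35 muscle differentiation genes, 12 were higher than in WT and 0 lower (median 0.58), led by Mb, myoglobin (1.40, SE 0.33), Ldb3 (1.35, SE 0.41) and the calcium pump Atp2a1 (1.26, SE 0.37). Of 10 smooth muscle markers, 6 were lower and 0 higher, and their mean log2 ratio was 1.84 to 2.60 against 2.96 to 3.36 in WT. Of 15 inhibitors 4 were lower, among them Id2 (-1.81, SE 0.29), Twist2 (-1.64, SE 0.35) and Id4 (-1.39, SE 0.28). Of 25 upstream and partner factors 4 were higher, with Smarcd3 at 0.95 (SE 0.19), and 6 were lower, with Tcf21, a factor that acts beside Msc, at -1.37 (SE 0.16). The smooth muscle genes Tagln (-1.69, SE 0.43), Cnn1 (-1.62, SE 0.29) and Actg2 (-1.21, SE 0.28) were among those lower. Of 14 surface genes 4 were lower, among them Megf10 (-0.98, SE 0.29), and of 8 fusion genes Dock1 was lower (-0.76, SE 0.14). Of 8 squamous epithelium markers Krt14 was higher (0.98, SE 0.22), and Epcam (-1.79, SE 0.13) and Cdh1 (-0.64, SE 0.18) were lower. Of 5 markers of neurons and glia Tubb3 was higher (1.44, SE 0.20), of 6 endothelium markers Tie1 (0.77, SE 0.22) and of 4 airway and lung markers Scgb1a1 (0.65, SE 0.17). Of 4 cartilage markers Sox9 (0.95, SE 0.21) and Comp (0.90, SE 0.16) were higher and Col2a1 was lower (-0.51, SE 0.13). Their part in the values of the members was not tested.

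In Nrf2-/-Keap1-/- esophagi 0 of 8 genes were called against WT, where 0.426% of all genes were (3371 with an unadjusted p under 0.05). Mef2c was the nearest, at 0.74 (SE 0.17, adjusted p = 0.083), with 4.13, 3.43 and 3.90 on the RefSeq probe and no overlap with WT, the 1 such gene of 8 (21.6% of all genes). Leaving out WT replicate 3 brought it past the threshold (0.92, adjusted p = 0.0318). Keap1-/- and Nrf2-/-Keap1-/- esophagi differed in 1 of the 8 genes, Myf5, where 33.4% of all genes were called and 18.3% called lower; groups did not overlap for 3 of 8 (48.4% of all genes), the others being Myod1 (0.58) and Msc (-0.66).

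Myf5 was not well above background on any Keap1-/- array (0.16, 0.10 and 0.00) and read 0.41, 1.13 and 1.72 in Nrf2-/-Keap1-/- esophagi. At P7 it was well above background on these 3 Nrf2-/-Keap1-/- arrays and on 1 WT array, and on no Nrf2-/- array. It thus reached the 3 arrays needed for a test only through the group where it was high, and the call is no independent support for a difference. The fitted difference was -1.0 (SE 0.25, adjusted p = 0.0117), and the signal in Keap1-/- was at least 2.06-fold lower. Replicate 1 of Nrf2-/-Keap1-/-, which gave 0.41, lay on slide 6 with the 3 Nrf2-/- arrays, and replicates 2 and 3 lay on slide 8 with 2 WT adult arrays. The 2 arrays on slide 8 had the higher Cy3 signal of Myf5 described above. Within slide 6, the Nrf2-/- arrays read 0.27, 0.31 and 0.28. The part of the slides in the difference was not tested. It was -0.68 (adjusted p = 0.0276) without Nrf2-/-Keap1-/- replicate 3.

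Across the 21 arrays of whole esophagus the members were set beside the mean log2 ratio of the 35 muscle differentiation genes, as a description over arrays that share groups and libraries. Pearson's r was 0.97 for Myf6, 0.96 for Myog, 0.89 for Mef2c, 0.85 for Pax7, 0.83 for Myod1, 0.70 for Tbx1, 0.56 for Msc, 0.46 for Myf5 and -0.25 for Pax3. With the 6 adult arrays included the value for Myog was 0.81 and for Myf6 0.97. Myog was lower in the adult epithelium than in whole esophagi with a similar level of muscle genes: E15.5 replicates 2 and 3, at 1.34 and 1.77, had Myog at 2.43 and 2.92, and Nrf2-/- adult replicates 2 and 3, at 2.00 and 1.88, had it at -1.08 and -0.91.

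**Figure D4:**
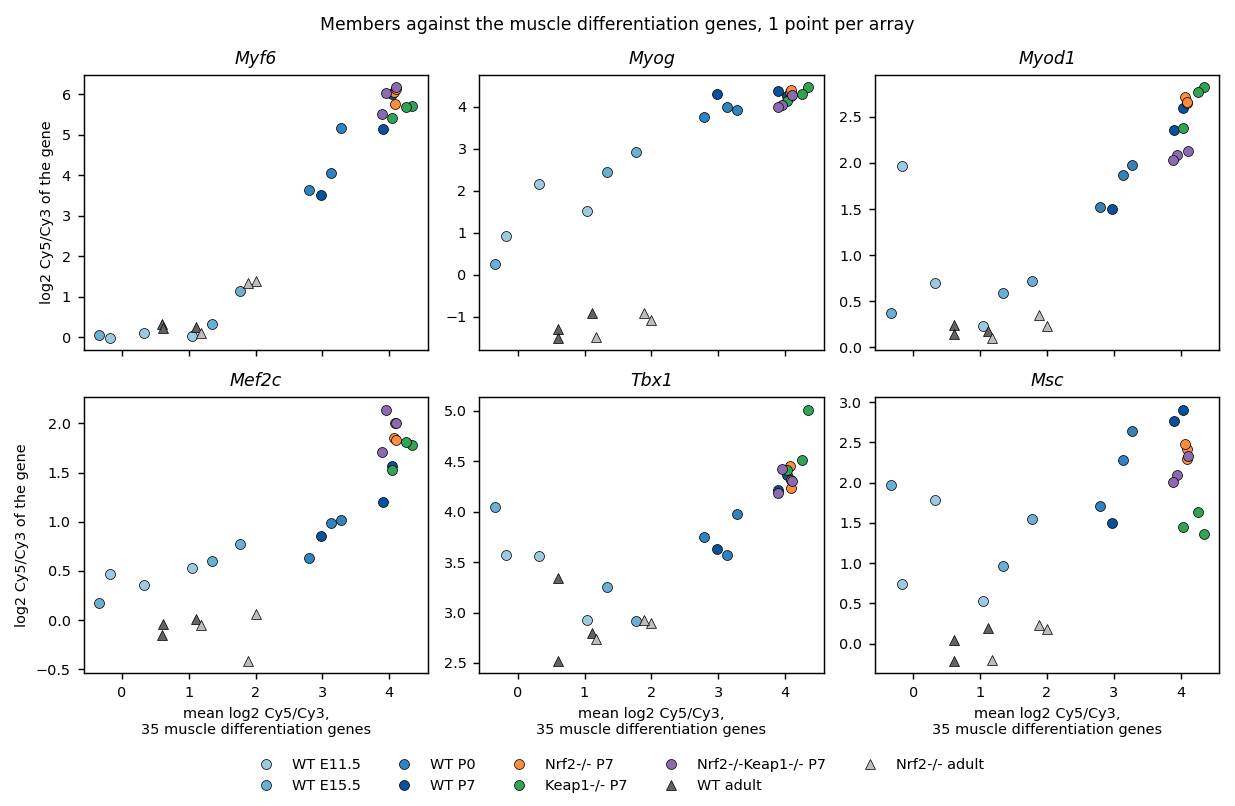
Log2 ratio of 6 members (vertical axis) against the mean log2 ratio of 35 muscle differentiation genes (horizontal axis), 1 point per array, with circles for whole esophagus and triangles for adult epithelium. Myf6 follows the muscle genes in both tissues, while Myog and Msc of the adult arrays lie below whole esophagi of similar muscle level, and Myod1 of WT E11.5 replicate 2 (1.96) stands above the other embryonic arrays.

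The genes whose means over the 9 groups were most like those of a member were sought among 9878 genes with a range of at least 1. For Myog they were Myh3, embryonic myosin heavy chain (r = 0.993), Tnnt1 (0.993) and Fndc5 (0.992). For Mef2c they were Dusp27 (r = 0.996), Stbd1 (0.9935) and Npepl1 (0.989), and for Pax7 Sync (r = 0.996), Cfl2 and Igsf1 (both 0.994). For Tbx1 they were Bin1, Egfl7 (both r = 0.993) and Phyhd1 (0.991), and for Myod1 Phyhd1 (r = 0.988), Gja4 (0.987) and Iffo1 (0.980). Over the 27 single arrays the values for these genes were lower, from 0.82 for Phyhd1 beside Tbx1 to 0.98 for Myh3 beside Myog.

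Ordered by their mean in the 9 groups, most neighbouring groups of a member overlapped. Of 8 pairs of neighbours, 2 did not overlap for Myog, Myf6, Myod1, Mef2c and Msc, 1 for Myf5, and none for Tbx1, Pax7 and Pax3. For Myog the order from low to high was WT adult, Nrf2-/- adult, E11.5, E15.5, P0, Nrf2-/-Keap1-/-, Keap1-/-, WT P7 and Nrf2-/-.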

How the data were processed

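RNA of individual esophagi (Cy5) and Universal Mouse Reference RNA (Cy3) was hybridised to Agilent arrays, 27 in all, without dye swaps. The deposited scanner files hold the mean spot intensity and local background of each colour, background-subtracted and dye-normalized processed intensities, and their log10 ratio; the deposited value table holds the same log10 ratio, equal within 0.005 for 100% of values. Per the labels the authors used Agilent Feature Extraction 9.1. The file headers give version 10.7.3.1 for the 3 Keap1-/- arrays, WT adult replicate 3 and the 3 Nrf2-/- adult arrays, where 0.343% to 3.72% of spots were marked as outliers, and 10.5.1.1 for the other arrays, where 8.46% to 16.1% were. The SAM test of the study was not run.

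Mean intensities were corrected with normexp (offset 50) and normalized by loess within each array, with control spots at weight 0 (R 4.3.3, limma 3.58.1, statmod 1.5.0). Spots with local background over 5 times the array's median were left out, a rule chosen after seeing the data that removed 0 spots of the 9 genes. Outlier-marked spots were kept (185 of the members' spots, 47 per array). Spots, then probes, were averaged as log2 ratios. A gene was tested where at least 3 arrays of the fit had 1 of its probes well above background in Cy5, with limma (lmFit, eBayes), with Benjamini-Hochberg adjustment over all genes tested, and called at an adjusted p of 0.05 or lower. The fits held the 12 WT arrays up to P7, the 12 arrays at P7, WT at P7 and adult, both genotypes at P7 and adult, and the adult arrays. The scripts were tested on simulated data. Alternatives changed the background correction, normalization, filter, blocks and arrays used. The number of arrays limits the precision, and p-values measure the spread between these individual esophagi.

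All 9 members are named in every comparison, with up to 3 called genes of largest change from each other list for E11.5 to P7, P7 to WT adult and Keap1-/- against WT; 1 such gene is not reported here. The members, and the lists of muscle differentiation, surface, upstream, inhibitor and fusion genes and of markers of smooth muscle, squamous epithelium, heart, airway, endothelium, neurons and glia, B cells and cartilage, were chosen with earlier results of these data known. Probe names are those of the array design.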

Additional observations from a re-analysis of the deposited data

How the results depend on the processing

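Of the changes of single members recomputed under alternatives, 2158 kept their direction and side of the threshold, 91 lost a call, 39 gained one and 92 changed sign. From P7 to adult, Pax7 lost its call under several alternatives and Tbx1 under median centring (-0.96 in WT, -0.70 in Nrf2-/-), while no other member did where it was tested; the count of calls ranged from 5 to 7 without 1 array in WT and was 7 throughout in Nrf2-/-. Without 1 array, the counts ranged from 3 to 7 for the F-test, from 2 to 4 for E15.5 to P0, from 2 to 7 for E11.5 to P7, from 0 to 4 for Keap1-/- against WT, from 0 to 1 for Nrf2-/-Keap1-/- against WT, from 1 to 3 for Keap1-/- against Nrf2-/-Keap1-/- and from 0 to 1 for adults. Keap1-/- against WT gave 1 call with processed signals, no background correction, scale normalization, marked spots left out, deposited ratios or no filter, and 5 with median centring. Keap1-/- against Nrf2-/-Keap1-/- gave 2 with processed signals, no background correction or slide as a block, 3 with median centring and 0 with a filter on both colours. The F-test gave 3 with slide as a block. With all arrays in one fit, Nrf2-/-Keap1-/- against WT and the adult comparison gave 1 each, as did Nrf2-/-Keap1-/- against WT with slide as a block; with the 2 arrays of doubtful label left out of that fit, E11.5 to E15.5 gave 1 and E15.5 to P0 gave 5. Same-numbered replicates had correlations of their deviations from -0.45 to 0.64, and replicates with other numbers from -0.83 to 0.78. These ranges overlap and gave no sign that numbers pair the samples. The replicate block gave 5 calls for the F-test and 5 for E11.5 to P7, where Myod1 was lost (limma adjusted p = 0.0717). Median centring moved the share of higher genes among those called from 55.6% to 36.2% for E11.5 to P7 and from 46.1% to 66.2% for Keap1-/- against WT, and the median of all genes by 0.14 in the latter and 0.38 between adults. The cause of these changes was not tested.

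Without outlier-marked spots the sign turned, to Myod1 0.10 for E11.5 to E15.5, Myog -0.054 and Mef2c -0.30 for Nrf2-/- against WT at P7 and Mef2c 0.23 for the difference of steps; for Mef2c this left only the dim cDNA probe on 3 Nrf2-/- arrays and 1 WT array at P7. With median centring the sign turned, to Myf5 -0.20 for E11.5 to E15.5, Pax7 -0.072 for E15.5 to P0, Msc -0.15 for Nrf2-/- against WT at P7, Myog 0.46 for Keap1-/- against WT, Myog 0.13 for Nrf2-/-Keap1-/- against WT, Pax7 0.056 for Keap1-/- against Nrf2-/-Keap1-/-, Tbx1 0.26 and Msc -0.24 for the difference of steps and Myod1 -0.038 and Tbx1 0.64 for Nrf2-/- against WT in adults. Without the 2 arrays of doubtful label the sign turned, to Myf5 -0.016, Tbx1 -0.49 and Msc -0.0063 for E11.5 to E15.5. With slide as a block the sign turned, to Myog -1.29, Pax7 -0.050 and Mef2c -0.27 for E11.5 to E15.5 and Myf5 -0.0065 for Nrf2-/- against WT at P7. The 3 embryonic values rest on slide 1, where the only E15.5 array is the one labelled replicate 1, of doubtful label. With scale normalization the sign turned, to Tbx1 -0.17 for E11.5 to E15.5, Myog -0.17 and Msc -0.090 for Nrf2-/- against WT at P7, Tbx1 -0.20 for Nrf2-/-Keap1-/- against WT and Myod1 -0.0016 for Nrf2-/- against WT in adults. Without E11.5 replicate 2 as well (added after seeing the data) the sign turned, to Tbx1 -0.48 and Msc -0.53 for E11.5 to E15.5. With deposited ratios the sign turned, to Mef2c -0.020 for E11.5 to E15.5, Msc -0.23 for Nrf2-/- against WT at P7, Msc 0.32 for Keap1-/- against WT, Msc 0.19 for Nrf2-/-Keap1-/- against WT, Pax7 0.98 and Msc 0.12 for Keap1-/- against Nrf2-/-Keap1-/-, Myf6 0.66 for the difference of steps and Myod1 -0.055 for Nrf2-/- against WT in adults. With processed signals the sign turned, to Msc -0.23 for Nrf2-/- against WT at P7, Msc 0.32 for Keap1-/- against WT, Msc 0.19 for Nrf2-/-Keap1-/- against WT, Pax7 0.98 and Msc 0.12 for Keap1-/- against Nrf2-/-Keap1-/-, Myf6 0.66 for the difference of steps and Myod1 -0.051 for Nrf2-/- against WT in adults. Without background correction the sign turned, to Myog 0.0064 for Keap1-/- against WT, Pax7 0.12 for Keap1-/- against Nrf2-/-Keap1-/- and Msc -0.0051 for the difference of steps. With every spot's own background the sign turned, to Myog -0.72, Tbx1 0.36 and Msc -0.00080 for the difference of steps and Myog -0.70 and Tbx1 0.62 for Nrf2-/- against WT in adults. With scan as a block the sign turned, to Mef2c 0.049 for Nrf2-/- against WT in adults.

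Leaving out 1 array at a time also turned some signs. For E11.5 to E15.5 the ranges were Myod1 -0.77 to 0.10, Myog -0.19 to 1.14, Tbx1 -0.27 to 0.30 and Mef2c -0.064 to 0.23. For P0 to P7 the ranges were Msc -0.075 to 0.63. For Nrf2-/- against WT at P7 the ranges were Myf5 -0.047 to 0.17, Myog -0.0049 to 0.065 and Msc -0.44 to 0.26. For Keap1-/- against WT the ranges were Myog -0.086 to 0.084 and Pax7 -0.059 to 0.31. For Nrf2-/-Keap1-/- against WT the ranges were Myod1 -0.40 to 0.15 and Msc -0.69 to 0.0097. For the difference of steps the ranges were Myf6 -0.97 to 0.27, Myog -0.086 to 0.21 and Msc -0.20 to 0.50. For Nrf2-/- against WT in adults the ranges were Myod1 -0.022 to 0.10, Myog -0.061 to 0.23, Pax7 -0.20 to 0.026, Tbx1 -0.22 to 0.19 and Mef2c -0.17 to 0.067.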
